A study of Homo sapiens with 6 samples.

Results

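Glutathione and thioredoxin enzymes, the cell's main thiol systems for removing peroxides, were followed as 10 genes of the deposited count table, *GCLM*, *GCLC*, *GSS*, *SLC7A11*, *GSR*, *TXNRD1*, *TXN*, *PRDX1*, *SRXN1* and *GPX2*. They were taken by gene name from 58735 genes, and all 10 had enough counts to be tested. RNA was measured in OE33, an established human cell line grown from an esophageal adenocarcinoma. The 3 libraries of the group given acidified bile salts (ABS) came from cells held 20 min in medium without supplements at pH 4.0 with bile salts at 200 µM, then washed and kept 6 h in full medium. The 3 control libraries came from untreated OE33 cells. Each group was described as independent biological replicates of this single line, cultured in RPMI1640 with serum. The bile salts in the mixture were not named, and no group had acid, bile salts or the exposure medium alone. The contrast therefore holds all of these together, and their parts in it cannot be told apart.

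Glutathione is a tripeptide that is made stepwise from glutamate, cysteine and glycine, and cysteine mostly enters such cells as cystine through an exchanger on the plasma membrane. Glutathione reductase and thioredoxin reductase then use NADPH to return oxidised glutathione and thioredoxin to their reduced forms, which feed the peroxidases. Many genes of both systems are known targets of the transcription factor NRF2, which binds an antioxidant response element in their regulatory DNA after oxidative or electrophilic stress. Levels of RNA say nothing of enzyme activity or of the glutathione pool, neither of which was measured.

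Promoter sequences from RefSeq (GRCh38.p14) were used for 6 of the 10 genes, with 7 start sites because *TXNRD1* had 2. Each covered 300 bases, 250 of them before the start. Promoters of *GSS*, *SLC7A11*, *GSR* and *PRDX1* were not read, and that of *GSR* was left out by choice. The core of the antioxidant response element, TGACNNNGC on either strand, was found in 4 of these 7 promoters, belonging to 3 genes, *GCLM*, *TXNRD1* and *GPX2*. It was also found in 13.3% of all 35116 promoters in the same table. The following windows are shown because *GCLM* and *TXNRD1* rose after ABS while *GPX2*, which holds the same core, did not pass the test. Each is written 5′ to 3′ in the orientation of the core, which is in capitals, with 20 bases on either side.
GCLM, chr1:93909436-93909484, plus strand: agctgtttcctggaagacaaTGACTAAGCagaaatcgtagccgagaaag
TXNRD1, downstream start, chr12:104286910-104286958, minus strand: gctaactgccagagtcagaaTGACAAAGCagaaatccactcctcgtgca
TXNRD1, upstream start, chr12:104215660-104215708, plus strand: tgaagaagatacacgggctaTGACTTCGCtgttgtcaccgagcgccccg
GPX2, chr14:64942839-64942887, plus strand: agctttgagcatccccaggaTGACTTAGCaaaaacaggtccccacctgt

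The *GCLM* window and the window of the downstream *TXNRD1* start were identical at 25 of 49 bases, with a longest identical run of 11 bases that spans the end of the core and the bases after it. The *GCLM* and *GPX2* windows were identical at 24 of 49 bases, with a longest run of 6. The remaining pairs of printed windows were identical at 15 to 19 bases. The fixed letters of the core match in every pair because the windows were cut around it, and the identity of unrelated windows was not measured. The core ended 25 bases before the *GCLM* start, 93 bases before the downstream *TXNRD1* start and 113 bases before the *GPX2* start. The upstream *TXNRD1* promoter held 2 matches, the printed one 90 bases before the start and another that reached the start itself. The 250 bases before the start are shown for *GCLM* and the downstream *TXNRD1* start, the pair whose windows had the most identical bases. Those of the upstream *TXNRD1* start, which belongs to the same gene, are not shown. Read along the gene, the cores of the pair appear in capitals as their reverse complement.
GCLM, chr1:93909431-93909680, minus strand: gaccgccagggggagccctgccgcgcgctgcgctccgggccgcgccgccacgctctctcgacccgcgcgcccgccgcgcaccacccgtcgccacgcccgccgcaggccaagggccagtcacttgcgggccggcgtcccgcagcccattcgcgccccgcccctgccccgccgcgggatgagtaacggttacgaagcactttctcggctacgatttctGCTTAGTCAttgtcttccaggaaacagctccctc
TXNRD1, downstream start, chr12:104286782-104287031, plus strand: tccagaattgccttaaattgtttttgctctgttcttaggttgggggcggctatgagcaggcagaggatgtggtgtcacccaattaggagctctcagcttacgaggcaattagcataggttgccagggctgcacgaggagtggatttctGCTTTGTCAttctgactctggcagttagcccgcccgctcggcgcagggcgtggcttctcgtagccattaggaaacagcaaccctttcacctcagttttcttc

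The *GCLC*, *TXN* and *SRXN1* promoters held no match to this core within the same 300 bases. An AP-1 site, TGANTCA, was in none of the 7 promoters and in 7.71% of all promoters. The core bound by the aryl hydrocarbon receptor, GCGTG on either strand, was in 36.5% of all promoters, and numbered 6 in *TXN*, 3 in *GCLC*, 2 in *GCLM*, 1 in *SRXN1* and 1 at the downstream *TXNRD1* start. These are matches of letters and no binding was measured. The counts are per gene, so they do not separate the starts of *TXNRD1*.

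Library totals lay between 23414287 and 25235686 counts in the ABS group and between 22145676 and 23683950 in the control group. Levels are given as CPM, counts brought to a common library size with TMM scaling. A library with 0 counts of a gene could hold up to 3, which equals 0.118 to 0.137 CPM. The 6 epithelial markers were all present, with summed levels of 19158 to 20426 CPM in ABS and 18341 to 20986 CPM in control libraries. Among them *CLDN4*, a tight junction protein, had 1441, 1441 and 1060 CPM in ABS replicates 1, 2 and 3, against 799, 834 and 1069 CPM in control replicates 1, 2 and 3, a log2 fold change of 0.54 that passed with DESeq2 (adjusted p 0.0021) but not with edgeR (0.103). *CDH1*, an adhesion protein, lay at 0.18 with ABS wholly above control (edgeR adjusted p 0.457). The 7 immune markers summed to 5.77 to 6.45 CPM in ABS and 5.58 to 7.37 CPM in control libraries, mostly *CD14*, with *PTPRC* and *CD3E* at 0 in every library. The 7 fibroblast markers summed to 2.59 to 4.11 CPM in ABS and 2.82 to 3.14 CPM in control libraries, mostly *COL1A1*, with *COL1A2*, *DCN* and *THY1* at 0. The 5 squamous esophagus markers summed to 15.8 to 17.9 CPM in ABS and 15.2 to 17.9 CPM in control libraries, mostly *KRT13*, with *CRNN* at 0, while *KRT4* was at 0.432 to 0.847 CPM in ABS and 0.137 to 0.340 CPM in control libraries (edgeR adjusted p 0.438). The 4 endothelial markers together stayed at or under 0.275 CPM. The part of these markers in the results was not tested. On the second principal component, which took 25.9% of the variance, ABS replicate 3 and control replicate 3 lay away from the remaining libraries. Each gene's difference is therefore also given for replicates 1 and 2 and for the replicate 3 pair. The replicate 3 pair has 1 library per group and no test.

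After ABS, *GCLM*, the regulatory subunit of the ligase that starts glutathione synthesis, and *TXNRD1*, the cytosolic thioredoxin reductase, rose by 1.56-fold and 1.44-fold. In bulk RNA, a change in every cell and a change in a share of the cells cannot be told apart. *SLC7A11*, the cystine carrier, and *GCLC*, the catalytic subunit of the same ligase, had fold changes of 1.56 and 1.36 without overlap between the groups, but missed the threshold. For *GSS*, *GSR*, *TXN*, *PRDX1* and *GPX2*, other genes of synthesis, recycling and peroxide removal, the log2 fold changes lay between −0.18 and 0.02. *SRXN1*, which also belongs to peroxide removal, lay at 0.28 with overlap between the groups (edgeR adjusted p 0.484). Thus 2 of 10 genes were higher and 0 lower by edgeR's quasi-likelihood test at an adjusted p under 0.05, where 0.37% of 13768 tested genes were higher and 0.0654% lower. DESeq2 and limma-voom also called 0 of the 10 lower. ABS values lay wholly above control values in 4 of 10 genes and wholly below in 0, against 7.57% and 6.95% of all tested genes. At an unadjusted p under 0.05, 5 of 10 were higher and 0 lower, against 5.61% and 4.14% of tested genes. The median log2 fold change of the 10 was 0.15, beside 0.00 over all tested genes. Of all genes that edgeR called higher, 49 had counts in every library. In 46 of these the difference was larger within replicates 1 and 2 than in the replicate 3 pair, so this pattern is not particular to the 10.

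**Figure D1:**
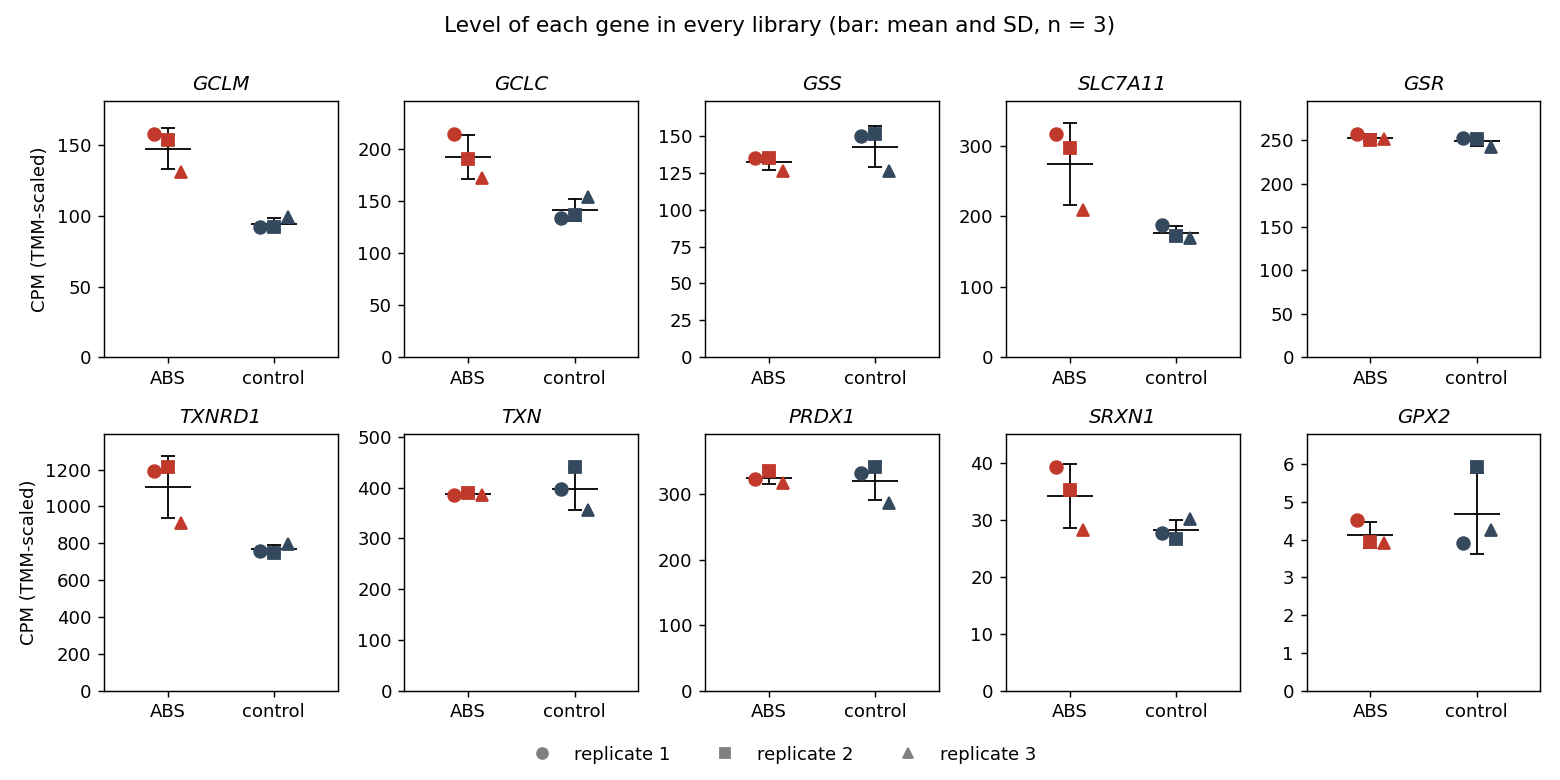
Level of each of the 10 genes in every library, in CPM on a linear axis that starts at 0, with ABS libraries in red on the left and control libraries in dark grey on the right. Marker shapes give the replicate number and bars the mean and SD of 3 libraries. The groups are apart for *GCLM*, *GCLC*, *SLC7A11* and *TXNRD1*, and ABS replicate 3, the red triangle, is the lowest ABS library in each of these.

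Among the genes of glutathione synthesis, *GCLM* (ENSG00000023909, chromosome 1, 93885205 to 93909456 on GRCh38) had 158, 153 and 131 CPM in ABS replicates 1, 2 and 3, against 92.1, 92.0 and 99.4 CPM in control replicates 1, 2 and 3. Every ABS library was above every control library, and across the groups the replicate 3 libraries lay closest to each other. On the log2 scale the fold change was 0.64 ± 0.08 (SE), with a 95% interval of 0.46 to 0.82 and an edgeR adjusted p of 0.00498, rank 16 of all tested genes by p. Its log2 difference was 0.76 within replicates 1 and 2 and 0.40 in the replicate 3 pair.

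*GCLC* (ENSG00000001084, chromosome 6, 53497341 to 53616970) encodes the subunit that carries the active site, while *GCLM* lowers its sensitivity to inhibition by glutathione. Its level was 214, 190 and 172 CPM in ABS replicates 1, 2 and 3, against 134, 137 and 153 CPM in control replicates 1, 2 and 3. The groups did not overlap, with ABS replicate 3 lowest and control replicate 3 highest in its group. A log2 fold change of 0.44 ± 0.09 had a 95% interval of 0.25 to 0.64 and an edgeR adjusted p of 0.0596. It was 0.58 within replicates 1 and 2 and 0.16 in the replicate 3 pair.

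*SLC7A11* (ENSG00000151012, chromosome 4, 138164097 to 138242349) encodes the light chain of the exchanger that brings in cystine and releases glutamate. It had 317, 297 and 208 CPM in ABS replicates 1, 2 and 3, against 187, 172 and 169 CPM in control replicates 1, 2 and 3. ABS replicate 3 stood well under the other ABS libraries, yet above every control library. The log2 fold change was 0.64 ± 0.13, as large as that of *GCLM* but with a wider 95% interval of 0.36 to 0.91, and the edgeR adjusted p was 0.0551. It was 0.77 within replicates 1 and 2 and 0.30 in the replicate 3 pair. The opposite-strand gene *SLC7A11-AS1* overlaps it and summed to 358 counts in ABS libraries and 351 in control libraries, 1.79% and 2.86% of those of *SLC7A11*. The strand setting of the counting is not given in the sources used here, so reads of this pair may not be told apart.

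*GSS*, which encodes the synthetase that adds glycine in the last step, had a lower mean after ABS. Its level was 135, 135 and 126 CPM in ABS replicates 1, 2 and 3, against 150, 151 and 127 CPM in control replicates 1, 2 and 3. Control replicate 3 was the control library that overlapped the ABS range. The estimate on the log2 scale was −0.11 ± 0.08, with a 95% interval of −0.29 to 0.07 and an edgeR adjusted p of 0.738. Within replicates 1 and 2 alone it passed as lower, at −0.16 with an adjusted p of 0.0498 by edgeR, in a fit where 5.33% of genes passed as lower. In the replicate 3 pair the log2 difference was 0.00.

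**Figure D2:**
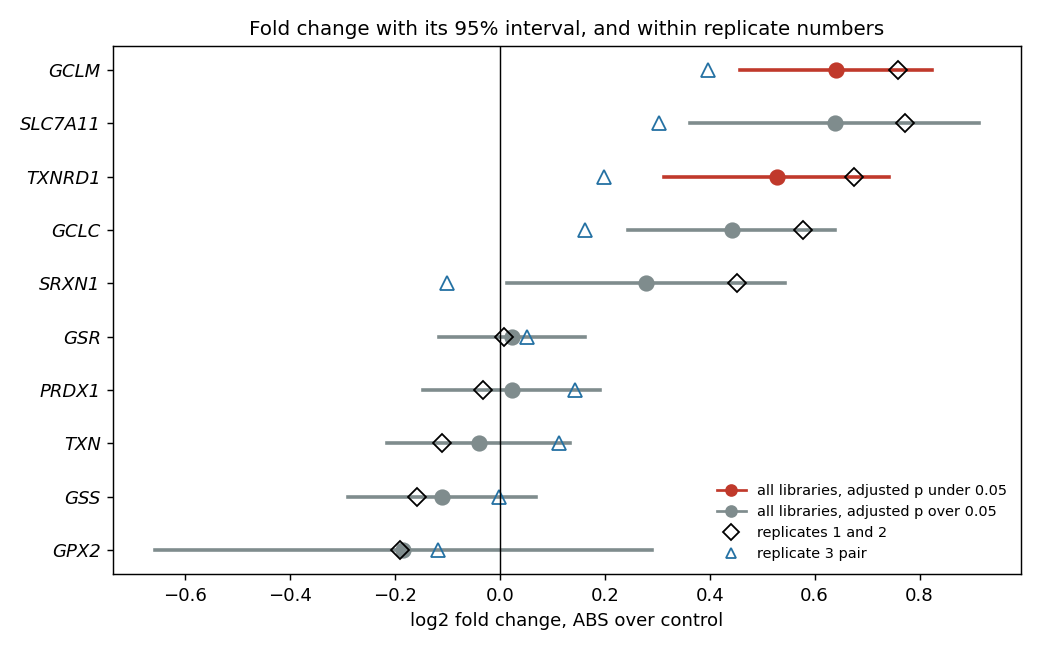
Log2 fold change of ABS over control for the 10 genes, ordered by size, with filled circles and lines for the edgeR estimate and its 95% interval over all libraries. Open diamonds give the difference within replicates 1 and 2 and open triangles that of the replicate 3 pair. *GCLM* and *TXNRD1*, in red, passed, and for *GCLM*, *SLC7A11*, *TXNRD1*, *GCLC* and *SRXN1* the triangle lies left of the diamond. The same order held in 46 of the 49 genes called higher over the whole series that had counts in every library.

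Of the reductase genes, *TXNRD1* (ENSG00000198431, chromosome 12, 104215779 to 104350305) encodes a selenoprotein that reduces thioredoxin in the cytosol. It had 1193, 1211 and 912 CPM in ABS replicates 1, 2 and 3, against 757, 748 and 795 CPM in control replicates 1, 2 and 3. The groups did not overlap, and across the groups the replicate 3 libraries were again nearest to each other. The log2 fold change was 0.53 ± 0.10, with a 95% interval of 0.31 to 0.74 and an edgeR adjusted p of 0.0431. It was 0.68 within replicates 1 and 2 and 0.20 in the replicate 3 pair. The pseudogene *RPL18AP3* lies inside *TXNRD1* on the same strand and held 4876 counts in ABS and 4662 in control libraries, 6.06% and 8.72% of those of *TXNRD1*, and reads in the shared stretch may have been dropped or split. *TXNRD1* alone took 39.4%, 40.4% and 36.0% of the summed counts of the 10 genes in ABS replicates 1, 2 and 3, and 32.4%, 31.7% and 35.1% in control replicates 1, 2 and 3.

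*GSR* (ENSG00000104687), the glutathione reductase, had 257, 250 and 252 CPM in ABS replicates 1, 2 and 3, against 253, 251 and 243 CPM in control replicates 1, 2 and 3. The groups overlapped and all 6 libraries lay close together. For *GSR* the log2 difference was 0.01 within replicates 1 and 2 and 0.05 in the replicate 3 pair. Its log2 fold change was 0.02 ± 0.06, with a 95% interval of −0.12 to 0.16 and an edgeR adjusted p of 0.956. That interval lies wholly under those of *GCLM*, *SLC7A11*, *TXNRD1* and *GCLC*, although the differences between genes were not tested.

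Among the peroxide-reducing genes, *TXN*, which encodes thioredoxin, had 385, 390 and 386 CPM in ABS replicates 1, 2 and 3, against 397, 440 and 356 CPM in control replicates 1, 2 and 3. Control libraries lay on both sides of the ABS libraries, and the log2 fold change of −0.04 ± 0.08 had a 95% interval of −0.21 to 0.13 (edgeR adjusted p 0.929). *PRDX1*, a peroxiredoxin that takes electrons from thioredoxin, had 323, 335 and 317 CPM in ABS replicates 1, 2 and 3, against 332, 340 and 287 CPM in control replicates 1, 2 and 3. These groups overlapped too, and the log2 fold change of 0.02 ± 0.08 had a 95% interval of −0.15 to 0.19 (edgeR adjusted p 0.961). Within replicates 1 and 2 the log2 difference was −0.11 for *TXN* and −0.03 for *PRDX1*. In the replicate 3 pair it was 0.11 for *TXN* and 0.14 for *PRDX1*. For *TXN*, at 0.038 without control replicate 2, and *PRDX1*, at −0.051 without control replicate 3, the sign of the log2 fold change turned. Named processed copies held at most 3 counts per library for *TXN* and 2 for *PRDX1*, though reads that fit both a gene and its copy may have been dropped or split.

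*SRXN1* encodes sulfiredoxin, which repairs peroxiredoxins that peroxide has over-oxidised. It had 39.3, 35.3 and 28.3 CPM in ABS replicates 1, 2 and 3, against 27.7, 26.8 and 30.3 CPM in control replicates 1, 2 and 3. ABS replicates 1 and 2 were above every control library, while ABS replicate 3 was under control replicate 3. This gave a log2 fold change of 0.28 ± 0.12, with an unadjusted p of 0.041 and an edgeR adjusted p of 0.484. Within replicates 1 and 2 alone it passed at 0.45 with an edgeR adjusted p of 0.00199, in a fit where 7.83% of genes passed as higher, and the replicate 3 pair differed by −0.10.

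*GPX2*, a selenium-dependent glutathione peroxidase of gut epithelium, was the lowest of the 10. It had 4.52, 3.93 and 3.92 CPM in ABS replicates 1, 2 and 3, against 3.91, 5.92 and 4.26 CPM in control replicates 1, 2 and 3. The groups overlapped, and counts of 90 to 130 per library left a wide 95% interval of −0.66 to 0.29 around a log2 fold change of −0.18 ± 0.22 (edgeR adjusted p 0.855). A rise of the size seen in *GCLM* lay above this interval, while a fall of that size lay within it, and the sign turned without control replicate 2 (0.014). Within replicates 1 and 2 the log2 difference was −0.19, and in the replicate 3 pair −0.12. The opposite-strand gene *CHURC1*, which overlaps *GPX2*, held 2718 counts in ABS and 2260 in control libraries, far above *GPX2* itself. Without a stated strand setting, some of the *GPX2* reads could belong to *CHURC1*.

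Ratios of 2 genes inside a library do not depend on how libraries are scaled. Of 5 such ratios of raw counts, 3 did not overlap between groups. Their numerators, *GCLM*, *TXNRD1* and *SLC7A11*, already lay apart as single genes, so these ratios partly restate those differences. The share of all gene ratios without overlap was not counted. An exact two-sided permutation test over 3 against 3 libraries cannot give a p under 0.1, so none could pass, and adjusted over the 5 ratios these 3 had p = 0.167. *GCLM* over *GCLC* was 0.737, 0.807 and 0.762 in ABS replicates 1, 2 and 3, against 0.688, 0.673 and 0.648 in control replicates 1, 2 and 3, a mean log2 difference of 0.20 (exact permutation p = 0.1). Here the replicate 3 libraries did not lie closest across the groups, and the modifier subunit was higher relative to the catalytic one in every ABS library.

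*TXNRD1* over *TXN*, the reductase over its substrate, was 3.10, 3.11 and 2.37 in ABS replicates 1, 2 and 3, against 1.91, 1.70 and 2.23 in control replicates 1, 2 and 3 (log2 difference 0.55, exact permutation p = 0.1). *SLC7A11* over *SLC3A2*, the light over the heavy chain of the cystine exchanger, was 0.922, 0.887 and 0.632 in ABS replicates 1, 2 and 3, against 0.550, 0.519 and 0.561 in control replicates 1, 2 and 3 (log2 difference 0.56, exact permutation p = 0.1). *SLC3A2* itself averaged 336 ± 7.01 CPM in ABS and 324 ± 20.6 CPM in control libraries (SD, n = 3 each), a log2 fold change of 0.05 with an edgeR adjusted p of 0.882. *SRXN1* over *PRDX1* and *GSR* over *GSS* overlapped between groups, with log2 differences of 0.24 and 0.13 (exact permutation p = 0.3 for each, also after adjustment).

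**Figure D3:**
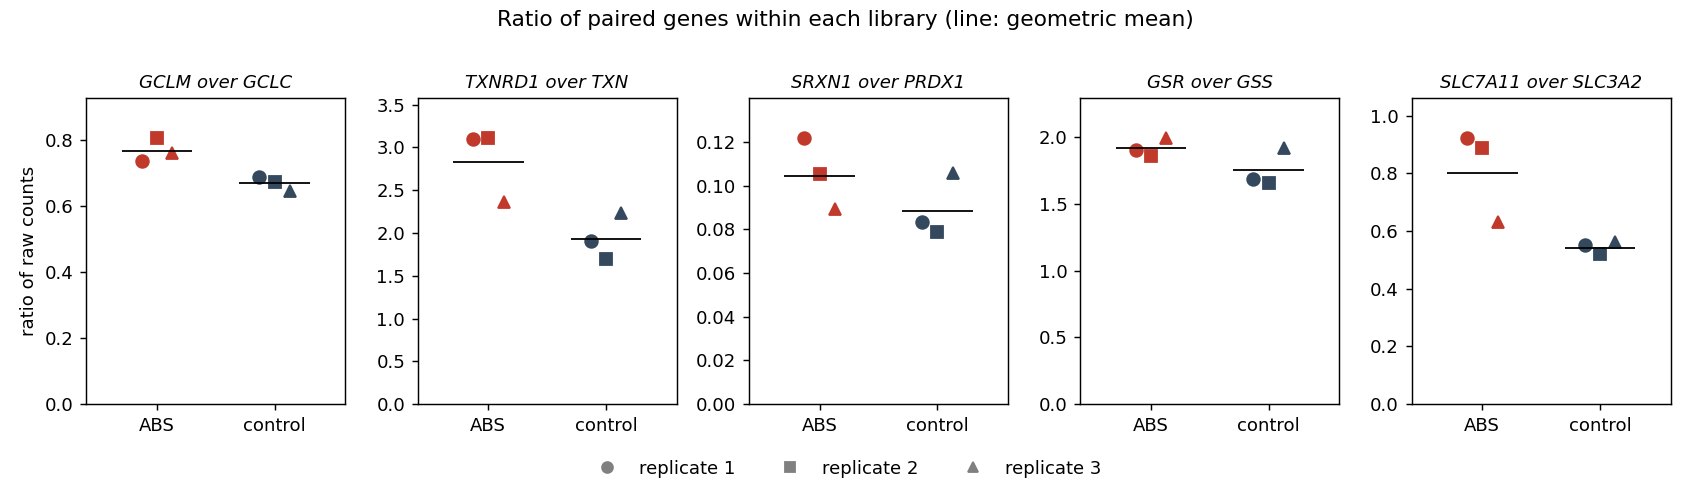
Ratio of raw counts of paired genes within each library, on linear axes from 0, with ABS libraries on the left and control libraries on the right. Shapes give the replicate number and lines the geometric mean of 3 libraries. The groups are apart for *GCLM* over *GCLC*, *TXNRD1* over *TXN* and *SLC7A11* over *SLC3A2*, and overlap for the other pairs.

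Levels between genes were compared per length, as TPM, the counts divided by the gene lengths in the table and brought to a common sum. These lengths are per gene, and the transcripts in use were not measured, so the order between genes depends on the lengths. *TXN* was highest, at 1262 ± 27.8 TPM in ABS and 1280 ± 86.0 TPM in control libraries, followed by *PRDX1* at 794 ± 12.8 TPM in ABS and 772 ± 38.8 TPM in control libraries (SD, n = 3 each). *TXNRD1* averaged 612 ± 79.2 TPM in ABS and 422 ± 31.7 TPM in control libraries, and *GSR* averaged 251 ± 6.54 TPM in ABS and 244 ± 5.59 TPM in control libraries. Thioredoxin and its peroxiredoxin were thus the most abundant transcripts of the 10 in both groups, and neither passed the test.

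By this measure, the genes of glutathione synthesis were lower and closer to each other. In ABS libraries *SLC7A11* averaged 105 ± 20.1 TPM, *GCLM* 101 ± 7.69, *GCLC* 82.6 ± 7.74 and *GSS* 79.7 ± 1.07. In control libraries the order per length was *GSS* at 84.9 ± 4.96 TPM, *SLC7A11* at 67.2 ± 3.44, *GCLM* at 64.3 ± 5.65 and *GCLC* at 60.4 ± 7.08, and the ranges of *SLC7A11* and *GCLM*, and of *GCLM* and *GCLC*, overlapped. *GSS* thus had the lowest mean of these 4 in ABS libraries and the highest in control libraries. In ABS libraries, though, its range of 78.5 to 80.6 TPM lay inside the 76.1 to 91.2 TPM of *GCLC*, so these neighbours were not separated. The change of order was not tested and rests on the gene lengths used. *SRXN1* averaged 47.2 ± 6.75 TPM in ABS and 38.7 ± 4.16 TPM in control libraries, and *GPX2* averaged 10.2 ± 0.759 TPM in ABS and 11.5 ± 2.36 TPM in control libraries.

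The rest of the pathway was read from 10 lists with 114 genes, of which 91 were tested. None passed in either direction by edgeR, DESeq2 or limma-voom over all genes, where edgeR called 0.37% of tested genes higher and 0.0654% lower. By edgeR at an unadjusted p under 0.05, 4 of the 91 were higher and 2 lower, against 5.61% and 4.14% of all tested genes. *ABCG2*, an exporter, passed as higher without a filter on low counts and when replicate 3 had its own term, and *ARRDC4* did so without control replicate 3. In replicates 1 and 2 alone, 5 of the 91 passed as higher and 7 as lower, against 7.83% and 5.33% of all tested genes. The median log2 fold change of these 91 was −0.05, and 34 of them were above 0, against 49% of all tested genes. In the 13 tested glutathione transferases, which attach glutathione to foreign compounds, 3 were above 0 and the median was −0.08. *GSTCD* lay at 0.20 on the log2 scale (edgeR adjusted p 0.590) and *GSTO1* at −0.12 (0.643).

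Of the other peroxidases none passed by edgeR over all libraries. The 5 tested glutathione peroxidases had a median log2 fold change of −0.08, 2 of them above 0, with *GPX1* at −0.12 (edgeR adjusted p 0.627) and *GPX8* at −0.23 (0.760). The 7 peroxiredoxins and sestrins had a median of −0.05, 3 of them above 0, with *PRDX5* at −0.16 (0.552) and *PRDX6* at −0.07 (0.822). The 4 glutaredoxins, which reduce mixed disulfides with glutathione, were all under 0, with a median of −0.08, *GLRX5* at −0.12 (0.732) and *GLRX2* at −0.11 (0.790).

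Of 11 other thioredoxin system genes, with a median of −0.09, *TXNIP*, which binds and inhibits thioredoxin, had 213, 224 and 223 CPM in ABS replicates 1, 2 and 3, against 191, 193 and 196 CPM in control replicates 1, 2 and 3. The groups did not overlap, and its log2 fold change of 0.19 ± 0.07 had an unadjusted p of 0.0147 and an edgeR adjusted p of 0.313. Its relative *ARRDC4*, an arrestin, lay at 0.58 (adjusted p 0.395). Of 11 client genes, with a median of −0.02, *MAP3K5*, a stress kinase held inactive by thioredoxin, lay at −0.24 (adjusted p 0.402) and *ESD*, an esterase of glutathione conjugates, at −0.06 (0.849).

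*TXNRD1* and *GPX2* contain selenocysteine, so a list of other selenoproteins and the machinery that makes and inserts it were also read. The 11 tested selenoproteins of this list had a median log2 fold change of 0.01, with *SELENOW* at −0.17 (edgeR adjusted p 0.527) and *SELENOT* at 0.07 (0.796). Selenoproteins placed in other lists are not in that median. *GPX1*, *GPX3*, *GPX4*, *TXNRD2*, *TXNRD3* and *SEPHS2* are such genes, with log2 fold changes between −0.21 and 0.04. Of 9 machinery genes, with a median of 0.01, *PSTK*, the kinase that prepares the selenocysteine tRNA, was at 0.73 (0.284) and *SEPHS2*, which makes the selenium donor, at −0.21 (0.490). In 8 transporters listed for glutathione and its conjugates, with a median of 0.01, *ABCG2* was at 0.36 (0.220) and *ABCC2* at 0.72 (0.549). These 8 include *SLC25A39* at −0.05 and *SLC25A40* at −0.06, which are mitochondrial carriers and not exporters. In 12 genes of precursor supply and glutathione turnover, with a median of −0.08, *SLC1A4*, an amino acid carrier, was at −0.78 (0.681) and *CHAC1*, which degrades glutathione, at −0.34 (0.707).

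**Figure D4:**
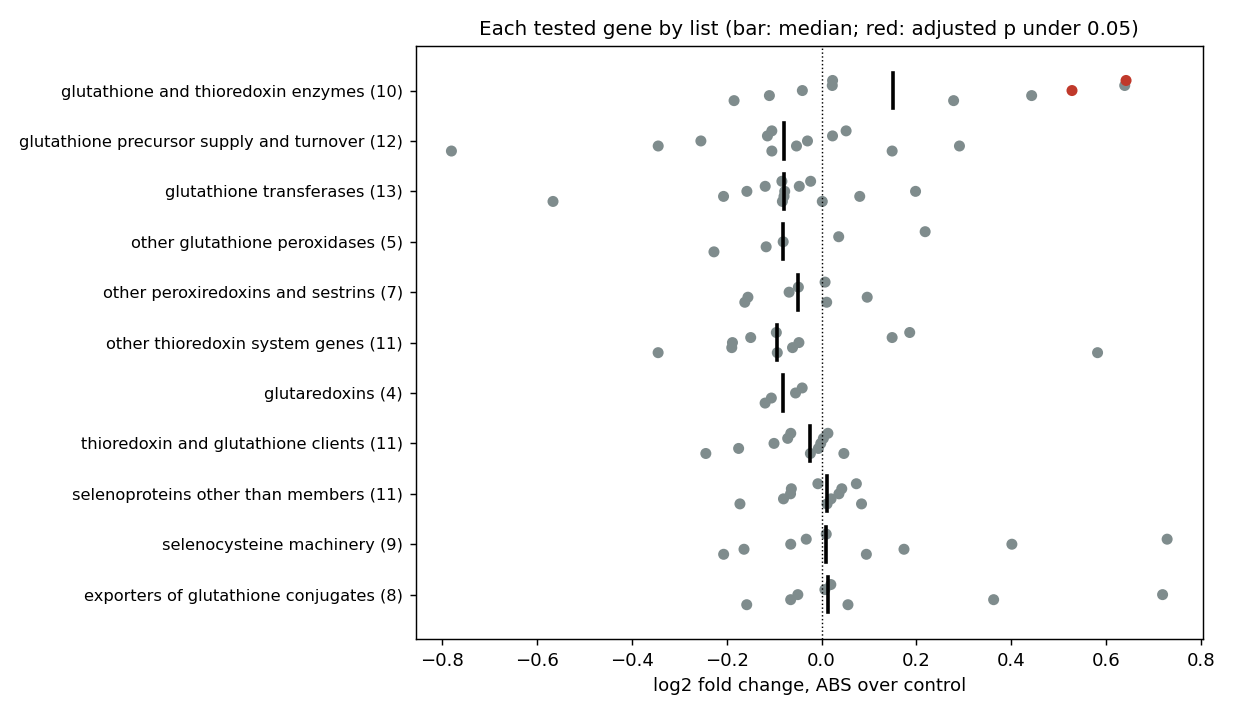
Log2 fold change of ABS over control for each tested gene of the 10 glutathione and thioredoxin enzymes (top row) and of 10 further lists, with the number of tested genes in parentheses. Bars give the median of a list and red points an edgeR adjusted p under 0.05. The red points are *GCLM* and *TXNRD1*, and the medians of the other lists lie between −0.09 and 0.01.

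Genes whose pattern over the 6 libraries was nearest to *GCLM* and *TXNRD1* were sought among 9722 protein-coding genes with a mean of at least 5 CPM. Likeness was the root mean square difference of log2 CPM after centring each gene on its mean. Nearest to *GCLM* were *TGFA*, a ligand of the EGF receptor, at 0.04, *EXT1*, an enzyme of heparan sulfate synthesis, at 0.05, and *KATNBL1* at 0.07. *TXNRD1* was the gene in place 5, *GCLC* in place 28, *SLC7A11* in place 58 and *SRXN1* in place 260. *GSR* was in place 3293, *PRDX1* in 3942, *TXN* in 5754 and *GSS* in 7040. The difference between the groups is part of this measure, so the places largely restate the fold changes. The log2 fold changes were 0.62 for *TGFA*, 0.69 for *EXT1* and 0.55 for *KATNBL1*, beside 0.64 for *GCLM*. Nearest to *TXNRD1* were *FBXO30* at 0.03, *NCEH1*, a hydrolase of cholesterol esters, at 0.03 and *SDR42E1* at 0.04, with *GCLM* in place 15. By edgeR, *NCEH1* passed (adjusted p 0.0344), while *FBXO30* (0.0687) and *SDR42E1* (0.184) did not.

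The calls changed with the libraries and the test used. By edgeR, 0 of the 10 genes passed without ABS replicate 1, without control replicate 1 or without control replicate 2, where 0.0848%, 0.106% and 0.0774% of all tested genes were called higher. At an unadjusted p under 0.05, 4 of the 10 were higher in each of these fits, against 3.82%, 3.76% and 3.6% of all tested genes. Without ABS replicate 2 only *GCLM* passed, at an adjusted p of 0.0442, against 0.113% of all genes.

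Without ABS replicate 3 or without control replicate 3, 4 genes passed, *GCLM*, *TXNRD1*, *SLC7A11* and *GCLC*, against 1.33% and 2.27% of all tested genes. There the adjusted p of *SLC7A11* was 0.00024 and 0.0264 and that of *GCLC* 0.00892 and 0.00754. The same 4 passed with DESeq2 (1.54% of all genes higher), without a filter on low counts (1.17%) and in a fit that set replicate 3 apart by a term of its own (2.24%). With the robust fit 3 passed (0.429%), *GCLM*, *TXNRD1* and *GCLC*, and with limma-voom (0.378%) and library size alone (0.225%) *GCLM* and *TXNRD1* did. The part of the replicate 3 libraries in these differences was not tested.

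**Figure D5:**
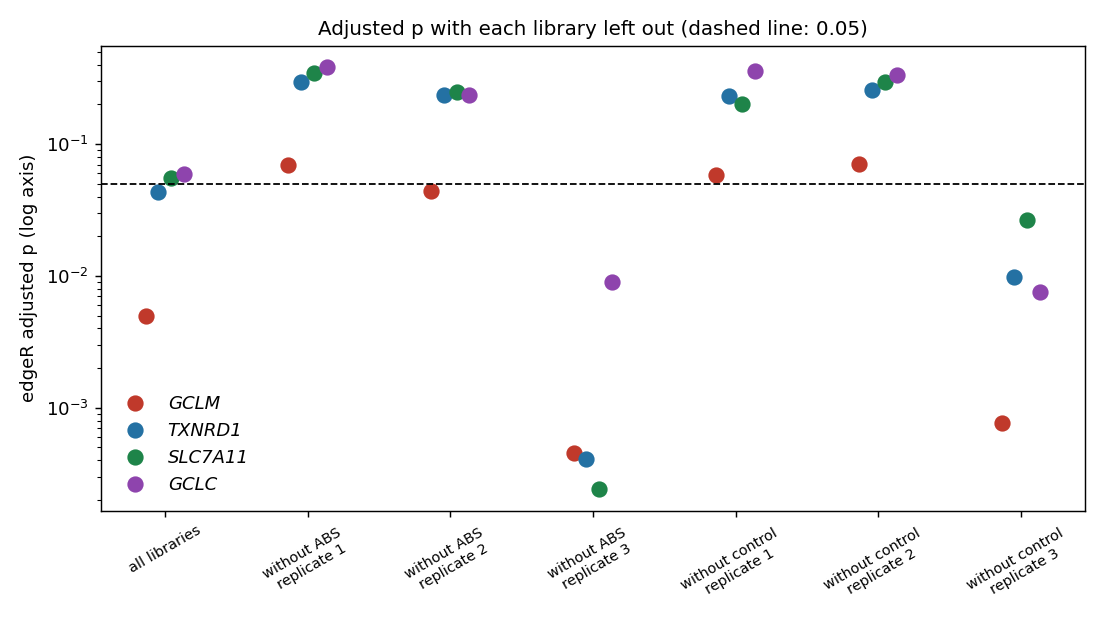
Adjusted p of *GCLM*, *TXNRD1*, *SLC7A11* and *GCLC* by edgeR on a log axis, with all libraries and with each library left out. The dashed line marks 0.05. All 4 genes lie under the line when a replicate 3 library is left out, and only *GCLM* does so for ABS replicate 2.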

How the data were processed

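Poly(A) RNA of 6 OE33 libraries, 3 ABS and 3 control, was measured by RNA-seq. The authors deposited raw counts per gene with gene lengths, made with HISAT2 2.0.5 and featureCounts 1.5.0-p3 on hg38 (GRCh38), per the submitters' processing notes. The annotation release, strand setting and handling of multi-mapping reads are not given in the sources used here. Genes were filtered with filterByExpr (minimum count 10, minimum total 15), scaled by TMM and tested with edgeR 4.0.16 in R 4.3.3, with group as the only term and Benjamini-Hochberg adjustment over 13768 genes at 0.05. The SE is the log2 fold change over the square root of F. The procedure was tested on simulated data. Alternatives used DESeq2 1.42.0, limma 3.58.1, other scaling, filter and terms, and left out libraries. Ratios had an exact permutation test. Promoters were matched by symbol to RefSeq, with chromosome 8 left out for the 10 genes, so that of *GSR* was not read.

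The 10 genes and the lists were chosen with earlier results of these data known. All 10 genes are named. Up to 4 genes past the threshold were to be named per list, otherwise the 2 with the smallest p, and the 3 nearest in pattern to each gene that rose. The limit for a count of 0 covers counting error only. The intervals of fold changes and the p-values measure the spread between replicates of 1 cell line. Total counts per library were 22145676 to 25235686.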

Additional observations from a re-analysis of the deposited data

How the results depend on the processing

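Of the 10 genes, 2 passed over all libraries, and 4 with DESeq2, without a filter on low counts or with a term for the replicate 3 libraries, 3 with the robust fit, and 6 in replicates 1 and 2 alone. Of these 6, 5 were higher and 1, *GSS*, was lower, in a fit where 7.83% of all tested genes were higher and 5.33% lower. Leaving out single libraries gave 0 to 4. The count over all genes was 60, against 267 with DESeq2, 35 with library size alone, 409 without the filter, 465 with the replicate 3 term and 1813 in replicates 1 and 2 alone, and 12 to 438 with a library left out. The cause of these moves was not tested.

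With the replicate number as a block, 4 of the 10 genes and 350 of all genes passed. The labels give shared numbers but no shared source, and the deviations of same-numbered libraries correlated at 0.04, 0.03 and 0.17, which do not all exceed 0.1, so the numbers were not taken as pairs. Under the block *ABCG2* also passed, the 1 gene of the 10 pathway lists to do so.

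The sign turned for *TXN* without control replicate 2 (−0.12 to 0.038 over the fits without a library), for *PRDX1* in replicates 1 and 2 alone (−0.032) and without control replicate 3 (−0.051 to 0.070 over the fits without a library), and for *GPX2* without control replicate 2 (−0.30 to 0.014), none past the threshold. *GCLM* passed in 11 of 14 alternatives, *TXNRD1* in 10, *GCLC* in 8 and *SLC7A11* in 7, and their log2 fold changes stayed positive, between 0.36 and 0.80. With 3 libraries per group, depth limits *GPX2* most.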
